A study of Mus musculus with 9 samples.

Results

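The 8 mouse miRNAs described here are mmu-miR-3473a, mmu-miR-3473b and mmu-miR-3473g, which share a family name, and mmu-miR-3963, mmu-miR-6366, mmu-miR-7005-5p, mmu-miR-6378 and mmu-miR-690, named below without the species prefix. They were chosen by name from the 1881 miRNAs on the array, because in earlier results of these data their signal varied together and was higher toward the highest dose of alpha particles. Dose differences and correlations of these 8 are therefore descriptions, and no p-value is given for any of them. Of the 1881 miRNAs, 446 were detected on at least 1 array. Tests covered the 134 that all 3 arrays of some dose detected. They include the 8, and 94 of them qualified through 0 Gy alone.

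The study exposed osteoblastic cells to alpha particles, the densely ionising helium nuclei that radionuclides such as radium emit, and measured miRNAs in total RNA on one-colour Agilent arrays. The cells were grown from the bone marrow of male C57BL/6 mice, 8 weeks old, with no genetic change named in the labels. After 7 days of culture the marrow cells spent 7 days in medium with β-glycerol phosphate, ascorbic acid 2-phosphate and dexamethasone, and all 3 dose groups shared this treatment. The groups received 0, 0.5 or 1 Gy, the irradiated ones at 0.22 Gy per minute. Each dose has 3 arrays, numbered 1 to 3 in the sample titles. How long after irradiation the RNA was extracted is not stated. The labels do not tell whether same-dose samples are different mice or dishes, so p-values measure only how far these samples spread, which may be technical. In these bulk cultures, fewer cells of a type and less RNA per cell cannot be told apart.

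A miRNA is a short RNA that is cut from a hairpin precursor and guides the silencing complex to messenger RNAs that pair with it. Pairing rests mainly on the seed, bases 2 to 8 of the mature strand, so miRNAs with the same seed are expected to share targets. In bone, miRNAs such as miR-2861 and miR-3960 are known as promoters of osteoblast differentiation. Among the 8, miR-690 has been studied in osteogenic differentiation and in macrophage vesicles, and miR-3473b in inflammatory signalling of macrophages and microglia. The other members have no role that is well established in bone.

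RefSeq held a mature sequence for 7 of the 8 (miR-6378 was not matched). The sequences are shown because they divide the set: a pair is nearly the same RNA, and all other pairings share runs of at most 7 bases. Capitals mark the seed.
miR-3473a: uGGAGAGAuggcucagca
miR-3473b: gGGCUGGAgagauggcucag
miR-3473g: cAAAAGUGaggcuggggaga
miR-3963: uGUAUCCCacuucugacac
miR-6366: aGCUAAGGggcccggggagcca
miR-7005-5p: cCUGGGGAugggaggaccagca
miR-690: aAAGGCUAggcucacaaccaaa

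No pair of these 7 had the same seed. The longest run of bases common to miR-3473a and miR-3473b was UGGAGAGAUGGCUCAG, 16 bases long. Only the ends of the pair differ, which shifts the seed: that of miR-3473a lies wholly within the run, and that of miR-3473b begins before it. miR-3473g shared at most 6 bases in a row with miR-3473b and 5 with miR-3473a, although it carries the family name. Its longest run with any member was CUGGGGA, 7 bases, with miR-7005-5p, and every other pair shared 6 or fewer.

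On GRCm38.p6, the build of the RefSeq table, the mature sequences lay apart from each other. miR-3473a is at chrX:162874920-162874937 (minus strand), within the span of Syap1, and miR-3473b at chr10:41670774-41670793 (plus strand), within Ccdc162. miR-3473g is at chr2:126902290-126902309 (minus strand), within Sppl2a. miR-7005-5p, at chr2:180179797-180179818 (minus strand), lies within Lama5, which encodes the α5 chain of laminin, a basement membrane protein. miR-690, at chr16:28599940-28599961 (minus strand), lies within Fgf12, which encodes a growth factor homolog that stays inside the cell. miR-3963, at chr3:151023839-151023857 (minus strand), and miR-6366, at chr16:18165093-18165114 (minus strand), lie in no gene span of that table. Whether the others lie in exons or introns was not analysed here. The scanner files name an older build, mm9, and carry no positions used here.

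The run common to miR-3473a and miR-3473b is the head of the mouse B2 element, a short interspersed repeat transcribed by RNA polymerase III. The following hairpins, with the run in capitals, show where it sits in 3 members.
Mir3473a: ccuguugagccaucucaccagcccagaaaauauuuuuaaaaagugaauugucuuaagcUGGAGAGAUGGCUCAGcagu
Mir3473b: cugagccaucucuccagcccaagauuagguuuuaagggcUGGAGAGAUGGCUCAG
Mir690: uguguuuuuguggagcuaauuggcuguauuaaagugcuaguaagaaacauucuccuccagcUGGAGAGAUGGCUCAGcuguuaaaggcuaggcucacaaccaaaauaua

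In the Mir3473a and Mir3473b hairpins the run is part of the mature miRNA, and in Mir690 it lies before the mature miRNA, which shares only 6 bases in a row with miR-3473b. The search for UGGAGAGAUGGCUCAG found it in 5 of 1005 mouse hairpins, those 3 and Mir3473f and Mir6413. Its reverse complement, CUGAGCCAUCUCUCCA, was in 4, which were Mir3473b, Mir3473c, Mir3473f and Mir8115. Either was present in 7 hairpins, or 0.697%. Searched as TGGAGAGATGGCTCAG on both strands, the run was in 51 of 32851 promoter windows of 300 bases, or 0.155%. The whole mature sequence of miR-3473b was in 32 of these windows, or 0.0974%. From which genomic copies the signal of its probes came was not tested. The GC content of the 7 sequences ran from 45.5% to 72.7%, with a median of 55.6%, beside a median of 63.2% over the 117 tested miRNAs with a sequence.

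Signals below are log2 of the summed, background-subtracted probe signal after each array was scaled on its 75th percentile, so 1 unit is a doubling. Values below a floor of 11.46 scaled units (log2 3.52) were set to that floor. A miRNA counted as detected on an array when, for 1 or more of its probes, at least 50% of the spots were well above background. Probes of different miRNAs can respond differently, so signals, and shares of the summed signal, are not amounts of RNA and give no order of amount between miRNAs.

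The arrays were not alike. Array 1 of 0.5 Gy and array 1 of 1 Gy had a high background, with an additive error in the scanner software of 19.4 and 11.2 against 1.60 to 2.83 on the other 7. Array 1 of 0 Gy differed in another way. The percentile signal by which it was divided in scaling was 1462, against 618 to 815 on all other arrays. Scaling thus lowered the values of array 1 of 0 Gy more than those of any other array. Between 144 and 234 miRNAs were detected per array. Arrays 1 and 3 of every dose lay on the same slide, array 2 of 0.5 Gy and of 1 Gy shared another, and array 2 of 0 Gy lay alone on its slide. Of a list of 10 stromal and osteoblastic miRNAs, 6 were detected on at least 1 array (miR-125b-5p, miR-214-3p, miR-199a-3p, miR-199a-5p, miR-2861 and miR-3960), and miR-143-3p, miR-145a-5p, miR-29b-3p and miR-218-5p were detected on none. The summed log2 signal of that list was 10.64 to 11.62 at 0 Gy, 11.12 to 11.35 at 0.5 Gy and 10.93 to 10.96 at 1 Gy. Of 7 haematopoietic miRNAs only miR-223-3p was detected, with a summed log2 signal of 6.33 to 6.81, 6.61 to 8.19 and 6.68 to 7.20 at the 3 doses. None of 2 endothelial, 3 muscle and 3 epithelial miRNAs was detected on any array. The summed signals count the undetected miRNAs of a list too, at background or floor level. The muscle list, with none detected, summed to at most 5.10 at 0 Gy, 7.79 at 0.5 Gy and 6.76 at 1 Gy. The part of these levels in the results was not tested.

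On every 1 Gy array, miR-3473b, miR-3963 and also miR-6366 exceeded every 0 Gy array, and of the 134 tested miRNAs only these 3 did so (2.24%). Their mean differences were 1.98, 2.00 and 1.59 log2 units. The separation is that of the scaled signal. Before scaling, array 1 of 1 Gy read lower than array 1 of 0 Gy for miR-3473b and miR-3963, so their groups overlapped there. Of the 134, the 94 that qualified through 0 Gy alone were each undetected on at least 1 array of either irradiated dose. The filter can thus lower this share and the shares of higher means against 0 Gy given below. By how much was not tested. miR-3473a and miR-690 were also higher in the mean at 1 Gy, but on 2 of the 3 arrays only. miR-3473g, miR-7005-5p and miR-6378 differed by 0.26 to 0.40 between 1 and 0 Gy, less than the SD of either dose, and were lowest in the mean at 0.5 Gy. As scaled here, the label of a rise with dose thus describes 5 of the 8, whose dose means stood in the order 0, 0.5, 1 Gy. This order was found for 11 of the 134 tested miRNAs (8.21%). It depended on the processing: scaled on all probes, these 5 members were lower at 0.5 than at 0 Gy. With the slide as a block, miR-3473a and miR-690 were lower too. No miRNA was called between any pair of doses by limma at an adjusted p of 0.05, or 0% of 134. The number with an unadjusted p under 0.05 was 4 for 1 against 0 Gy, 2 for 0.5 against 0 Gy and 0 for 1 against 0.5 Gy.

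**Figure D1:**
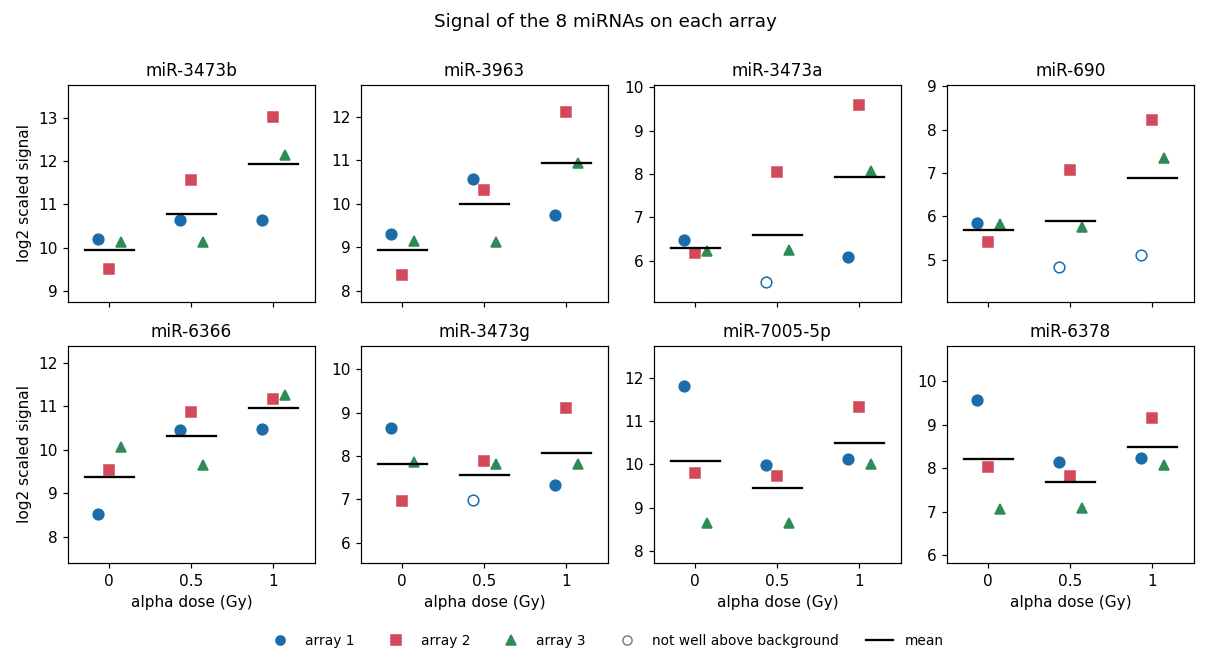
Log2 scaled signal (vertical axis) of the 8 miRNAs on each of the 9 arrays by alpha dose in Gy (horizontal axis). Symbols give the array number, open symbols mark values not well above background, and bars are dose means of 3 arrays. For miR-3473b, miR-3963 and miR-6366 all 1 Gy points lie above all 0 Gy points, while miR-7005-5p and miR-6378 have their highest point at 0 Gy.

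miR-3473b read 10.20, 9.50 and 10.14 on arrays 1, 2 and 3 of 0 Gy. It read 10.64, 11.56 and 10.12 at 0.5 Gy, and 10.64, 13.00 and 12.14 at 1 Gy. Arrays 2 and 3 of 1 Gy and array 2 of 0.5 Gy were the high ones, array 3 of 0.5 Gy was at the 0 Gy level, and the lowest 1 Gy array was 0.44 above the highest 0 Gy array. The means were 9.95 ± 0.39, 10.77 ± 0.73 and 11.93 ± 1.19 (SD, n = 3). The difference of 1 from 0 Gy was 1.98 (SE 0.65), a 3.96-fold ratio. With the slide as a block it was 1.30, and on the 6 arrays of the largest slide alone 1.23, and it ranged from 0.74 to 2.78 over all alternatives.

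miR-3473a, which differs from miR-3473b only at its ends, read 6.47, 6.17 and 6.23 at 0 Gy. At 0.5 Gy it read 8.05 and 6.24 on arrays 2 and 3 and was not well above background on array 1, where its value was 5.50. At 1 Gy it read 6.09, 9.60 and 8.07. Array 1 of 1 Gy, with the high background, was below all 0 Gy arrays, while arrays 2 and 3 were above them, so the groups overlapped. On that array the brighter probe read 77.6 scaled units, within its 0 Gy values of 80.4, 64.9 and 68.9. The dimmer probe, detected on 4 arrays only, was negative there (-9.68) and lowered the sum. It was also negative on array 1 of 0.5 Gy (-20.3, beside 65.5 for the brighter probe). The means were 6.29 ± 0.16, 6.60 ± 1.31 and 7.92 ± 1.76 (SD, n = 3), and 1 Gy stood 1.63 (SE 0.90) above 0 Gy. This difference was 0.79 with the slide as a block, 0.73 within the slide of 6 arrays, 0.46 when scaled on all probes and 2.70 without the 2 high-background arrays.

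miR-690, whose hairpin holds the same run, read 5.84, 5.40 and 5.82 at 0 Gy. On arrays 2 and 3 it read 7.07 and 5.75 at 0.5 Gy, and on the same arrays of 1 Gy it read 8.22 and 7.33. Its values on array 1, 4.83 at 0.5 Gy and 5.12 at 1 Gy, were not well above background. Its pattern was that of miR-3473a, with array 2 high at both irradiated doses, array 3 high at 1 Gy only and overlap through array 1. Between 1 and 0 Gy it differed by 1.20 (SE 0.82), or 0.43 with the slide as a block, 0.40 within the slide of 6 arrays, 0.36 when scaled on all probes and 2.25 without the 2 high-background arrays. The SD was 0.25 at 0 Gy, 1.13 at 0.5 Gy and 1.60 at 1 Gy (n = 3).

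miR-3963 shares no run longer than 3 bases with the 6 other members that have a sequence here. It read 9.29, 8.36 and 9.13 at 0 Gy, then 10.58, 10.31 and 9.12 at 0.5 Gy, and 9.74, 12.12 and 10.93 at 1 Gy. All 1 Gy arrays were above the 0 Gy arrays, the lowest by 0.45, but array 1 was lower at 1 than at 0.5 Gy. The means were 8.93 ± 0.50, 10.01 ± 0.78 and 10.93 ± 1.19 (SD, n = 3). The difference of 1 from 0 Gy was 2.00 (SE 0.67), a ratio of 4.0, and was 1.34 with the slide as a block. On the 6 arrays of the largest slide it was 1.13, and when scaled on all probes 0.76.

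miR-6366, the member of highest GC content, read 8.53, 9.54 and 10.07 at 0 Gy, and 10.45, 10.87 and 9.65 at 0.5 Gy. At 1 Gy it read 10.48, 11.16 and 11.25. The lowest 1 Gy array was 0.41 above the highest 0 Gy array, and of the 8 it had the smallest SD at 1 Gy (0.42). At 1 Gy its mean was higher than at 0 Gy by 1.59 (SE 0.54), which changed little with the slide, to 1.48 with it as a block and 1.57 on the slide of 6 arrays. It was 0.34 when arrays were scaled on all probes, the alternative that also gave the lowest value for miR-3473a, miR-3473b, miR-3963 and miR-690. In that scaling the median over all tested miRNAs was -1.08, against -0.49 here.

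miR-7005-5p comes from the 5′ arm of its hairpin. It read 11.80, 9.81 and 8.66 at 0 Gy. On the 0.5 Gy arrays it read 9.99, 9.73 and 8.66, and on the 1 Gy arrays 10.13, 11.33 and 10.01. Its highest value was on array 1 of 0 Gy, so the 1 Gy arrays did not stand apart from the 0 Gy arrays, but all 3 were above all 0.5 Gy arrays. It was the only tested miRNA of which the latter held, 1 of 134 (0.746%). The means were 10.09 ± 1.59, 9.46 ± 0.71 and 10.49 ± 0.73 (SD, n = 3). Between 1 and 0 Gy the difference was 0.40 (SE 0.79) and depended on the 0 Gy arrays, at 1.26 without array 1 and -0.32 without array 3. It was also below 0 when scaled on all probes (-0.84) or within the slide of 6 arrays (-0.16).

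miR-6378 followed miR-7005-5p on every array. It read 9.57, 8.03 and 7.06 at 0 Gy. On the 0.5 Gy arrays it read 8.15, 7.83 and 7.08, and on the 1 Gy arrays 8.24, 9.17 and 8.07. Array 1 of 0 Gy was again the highest and array 3 of 0 Gy the lowest. The difference of 1 from 0 Gy was 0.27 (SE 0.67), 0.95 without array 1 of 0 Gy and -0.31 without its array 3. It was -0.97 when scaled on all probes and -0.16 within the slide of 6 arrays.

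miR-3473g read 8.64, 6.97 and 7.85 at 0 Gy, and 7.88 and 7.82 on arrays 2 and 3 of 0.5 Gy, with a value of 6.99 on array 1 that was not well above background. At 1 Gy it read 7.33, 9.10 and 7.80. Only array 2 of 1 Gy exceeded the range of the 0 Gy arrays. The difference of 1 from 0 Gy was 0.26 (SE 0.62) and was below 0 under 3 other scalings, at -0.98 on all probes, -0.41 with quantile normalization and -0.007 with no scaling. Within the slide of 6 arrays it was -0.68.

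Over the 8, the median difference of 1 from 0 Gy was 1.39, beside -0.49 over all 134 tested miRNAs. The latter turned positive over the 28 miRNAs detected on all 9 arrays (0.14), with no filter (0.45) and with normexp background correction (0.11). All 8 had a higher mean at 1 than at 0 Gy, as did 34 of the 134 (25.4%), although for miR-3473g, miR-7005-5p and miR-6378 the sign turned under scaling on all probes. Of the 10 largest positive differences, 4 belonged to the 8, which were chosen for a rise toward 1 Gy. Without slide 3, which held array 2 of both irradiated doses, the median of the 8 was 0.66, and without the 2 high-background arrays it was 2.11. Leaving out array 2 of 1 Gy alone also gave 0.66, with 0.79 for miR-3473a, 0.54 for miR-690 and -0.25 for miR-3473g. Within the slide of 6 arrays it was 0.57, and with the slide as a block 0.61.

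**Figure D2:**
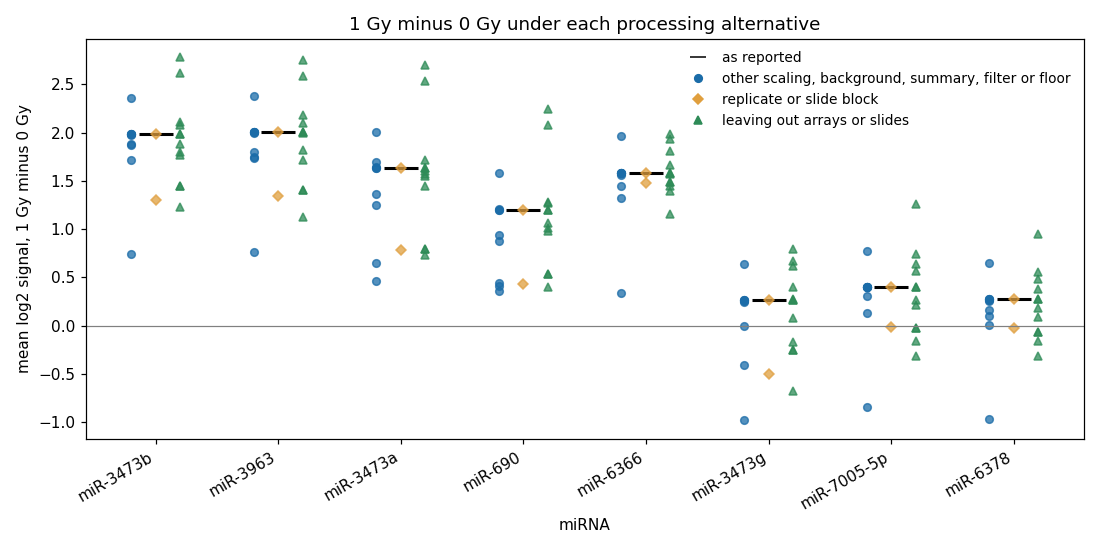
Difference of mean log2 signal, 1 Gy minus 0 Gy (vertical axis), for each of the 8 miRNAs (horizontal axis) as reported (black bars), under other scalings, background corrections, summaries, filters or floors (circles), with replicate number or slide as a block (diamonds) and with arrays or slides left out (triangles). miR-3473b, miR-3963, miR-3473a, miR-690 and miR-6366 stay above 0 in every setting drawn, while the other 3 lie on both sides of 0.

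Between 0.5 and 0 Gy the signs of the 8 were mixed. Higher means at 0.5 Gy were found for 5 members: miR-3963 by 1.08, miR-6366 by 0.94, miR-3473b by 0.83, miR-3473a by 0.31 and miR-690 by 0.20. Their differences were all below 0 when scaled on all probes, miR-3473a and miR-690 also with no scaling and with quantile normalization. The means of miR-7005-5p, miR-6378 and miR-3473g were lower by 0.63, 0.54 and 0.26. Of the 134 tested, 38 (28.4%) had a higher mean at 0.5 Gy, the median was -0.47 (0.009 over the 28 detected on all 9 arrays, 0.92 with no filter and 0.32 with normexp), and no miRNA was higher on all 0.5 Gy arrays than on all 0 Gy arrays (0% of 134). The median of the 8 was 0.25, and it was -0.51 within the slide of 6 arrays and -0.41 without slide 3.

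Between 1 and 0.5 Gy all 8 had a higher mean at 1 Gy, by 0.52 to 1.32 log2 units with a median of 0.96. Of the 134 tested, 59 (44%) were higher and the median was -0.03 (-0.40 with no filter and -0.21 with normexp). That median was above 0 with no scaling (0.12) and when scaled without the members' probes (0.11). With 1 array left out it ran from -0.46 (array 1 of 0.5 Gy) to 0.33 (array 1 of 1 Gy). The comparison shares its 1 Gy arrays with that against 0 Gy. The members' sign stayed above 0 in every alternative run, with the lowest value 0.007 for miR-3473g without array 2 of 1 Gy. The array numbers also bear on this comparison. Arrays of the same number at 0.5 and 1 Gy deviated together from their dose means, with correlations over the tested miRNAs of 0.84, 0.75 and 0.59. Those with 0 Gy lay between -0.13 and 0.16. At both irradiated doses array 1 had the high background and array 2 lay on slide 3, so number cannot be told apart from these. Deviations within a dose sum to 0, so the 3 correlations are not independent of each other.

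Taken pair by pair, 1 minus 0.5 Gy was 0.0003 for array number 1, 1.45 for number 2 and 2.02 for number 3 in miR-3473b. In miR-3473a it was 0.59, 1.55 and 1.83, in miR-690 0.29, 1.15 and 1.58, and in miR-6366 0.035, 0.29 and 1.60. miR-7005-5p gave 0.14, 1.60 and 1.36, and miR-6378 gave 0.093, 1.34 and 0.99. The number 1 pair, both with a high background, gave the smallest difference for these 6. miR-3963 was lower by 0.84 in that pair and higher by 1.80 and 1.81 in the others, and miR-3473g read 0.34, 1.23 and -0.012. In all 3 pairs 6 of the 8 were higher at 1 Gy, as were 10 of the 134 tested (7.46%). In the number 1 pair both values of miR-690 were not well above background. The same holds for the 0.5 Gy value of miR-3473a, which a negative probe also lowered. Array 2 was the highest of its dose at both 0.5 and 1 Gy for 4 members (miR-3473a, miR-3473b, miR-3473g and miR-690), as it was for 42 of the 134 (31.3%).

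In a fit of the 0.5 and 1 Gy arrays alone with the number as a block, limma called 3 of 40 miRNAs (7.5%), those that every array of 0.5 Gy or of 1 Gy detected. The 3 were miR-3473a, miR-3473b and miR-7005-5p. The members were chosen on this contrast, so the calls are no independent evidence. The same fit over all 134 called 0, with 10 at an unadjusted p under 0.05.

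The set was read by 16 probes, a pair for each miRNA, each with 15 spots of which 11 to 15 were used. Both probes of miR-3473b gave nearly the same signal on every array, with a ratio of the brighter to the dimmer of 1.09 to 1.15 and a correlation of 1.00 across arrays. The ratio was 2.75 to 3.94 for miR-3963, 1.47 to 2.21 for miR-6366 and 6.43 to 10.2 for miR-7005-5p. A probe of miR-6378 was detected on no array, so that miRNA rests on the other probe. All 15 probes that were detected on any array had a higher mean at 1 than at 0 Gy, and 10 did at 0.5 Gy. The miRNAs were chosen for a rise toward 1 Gy, so these counts are a description. The share over all detected probes of the array was not computed. The count at 1 Gy was 10 when scaled on all probes, within the slide of 6 arrays or without array 2 of 1 Gy. For miR-3963 the probes differed by 2.18 and 1.95 between 1 and 0 Gy, and for miR-6366 by 1.71 and 1.35. Probes of a miRNA share its sequence and its array and are not replicates.

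**Figure D3:**
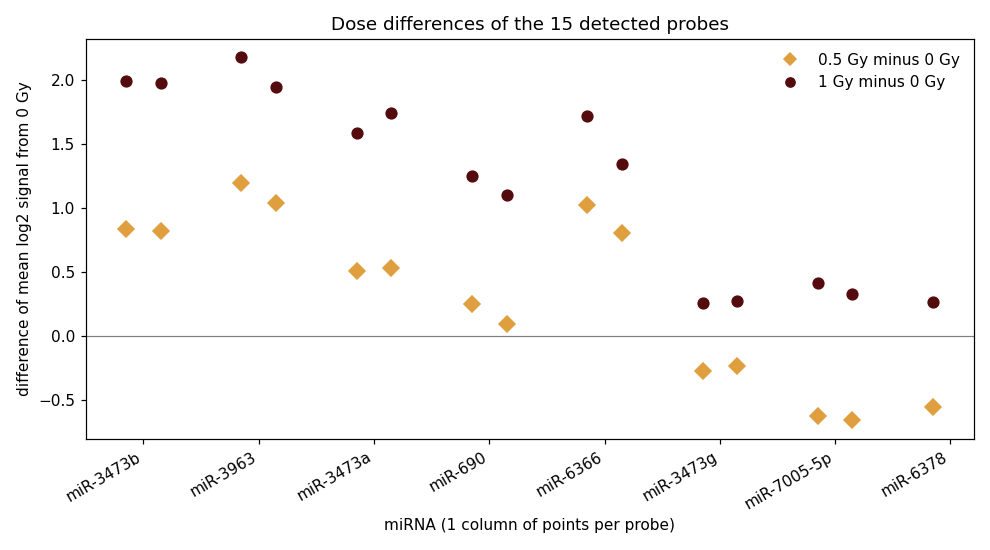
Difference of mean log2 signal from 0 Gy (vertical axis) for each of the 15 detected probes, grouped by miRNA (horizontal axis), at 0.5 Gy (diamonds) and 1 Gy (circles). Both probes of a miRNA lie close together, and the 5 probes of miR-3473g, miR-7005-5p and miR-6378 lie below 0 at 0.5 Gy.

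The 8 miRNAs made up a varying share of the summed signal of all detected miRNAs. It was 5.94%, 11.2% and 11.7% on arrays 1, 2 and 3 of 0 Gy. At 0.5 Gy it was 6.31%, 23.8% and 10.8%, and at 1 Gy 12.6%, 41.1% and 31.9%. All 1 Gy arrays were above all 0 Gy arrays, but array 1 of 1 Gy exceeded array 3 of 0 Gy by little. The share of miR-3473b ran from 0.99% on array 1 of 0 Gy to 17.1% on array 2 of 1 Gy, and that of miR-3963 from 0.53% to 9.25% on the same arrays. The members also supplied 8 of the 45 probes used for scaling. With those 8 left out of the scaling, the median over all tested miRNAs at 1 against 0 Gy moved from -0.49 to -0.13.

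**Figure D4:**
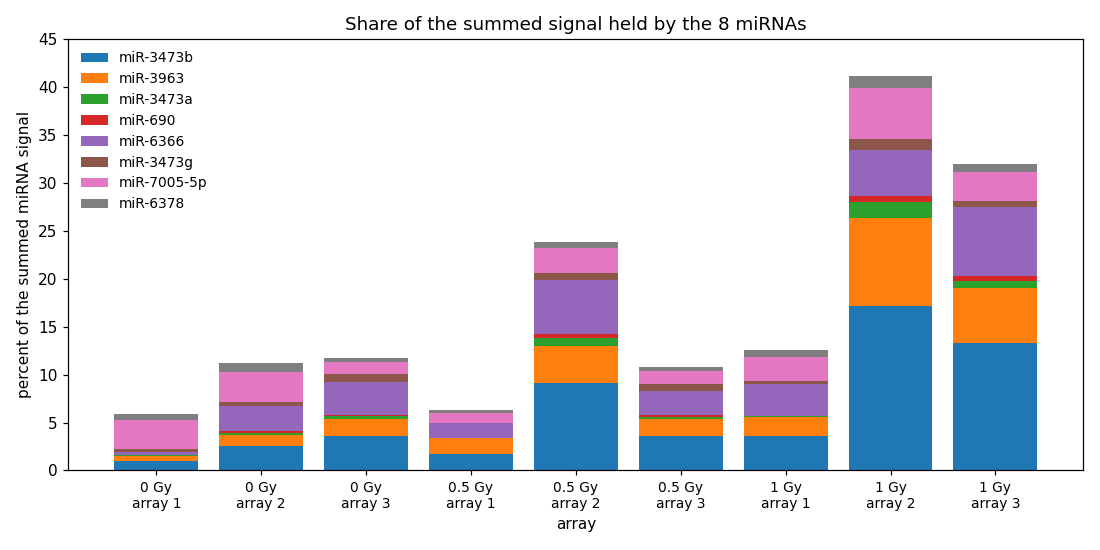
Percent of the summed signal of all detected miRNAs (vertical axis) held by each of the 8 miRNAs on the 9 arrays (horizontal axis). The stack reaches 41.1% on array 2 of 1 Gy and 31.9% on array 3, and stays at or below 12.6% on the other arrays except array 2 of 0.5 Gy (23.8%).

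Across the 9 arrays some pairs of the 8 followed each other closely and others did not. Over the 5 members detected on all 9 arrays the mean pairwise r was 0.481, but it was 0.883 when scaled on all probes and 0.792 without array 1 of 0 Gy. The correlations that follow are descriptions over 9 arrays that share doses, slides and scaling. miR-7005-5p and miR-6378 had a Pearson r of 0.999 (Spearman rho 0.983), and the log2 ratio of their signals stayed within 1.58 to 2.23. miR-3473a and miR-690 had an r of 0.984 (rho 0.983), and miR-3473b and miR-3963 an r of 0.953 (rho 0.950). For these 3 pairs the r of deviations from the dose means was 0.999, 0.983 and 0.901, and within the slide of 6 arrays r was 0.999, 0.974 and 0.867. Without the 2 arrays farthest from the median of the first-named miRNA of each pair, r was 0.995, 0.962 and 0.863.

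The near-identical pair, miR-3473a and miR-3473b, had an r of 0.90, a rho of 0.583 and an r of 0.626 without the 2 farthest arrays. miR-6366 had an r of 0.791 with miR-3473b and 0.765 with miR-3963, and of -0.112 and -0.146 with miR-7005-5p and miR-6378. The negative values rest on the 0 Gy arrays: without arrays 1 and 2 of 0 Gy, the farthest from the median of miR-6366, r was 0.805 with miR-7005-5p and 0.772 with miR-6378. miR-3473g had an r of 0.707 with miR-3473a and 0.021 with miR-6366. Without the 2 arrays farthest from the median of miR-3473a, the former was 0.437. Without the 2 farthest from the median of miR-3473g, the latter was -0.618. In all, 11 of the 28 pairs (39.3%) had an r over 0.7 and 3 (10.7%) had one over 0.9. Among the 23 other miRNAs detected on all 9 arrays, 40 of 253 pairs (15.8%) had an r over 0.7 and 19 (7.51%) had one over 0.9, with a median of -0.019 and a maximum of 0.994. The 8 were chosen for varying together, so their shares are a description.

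**Figure D5:**
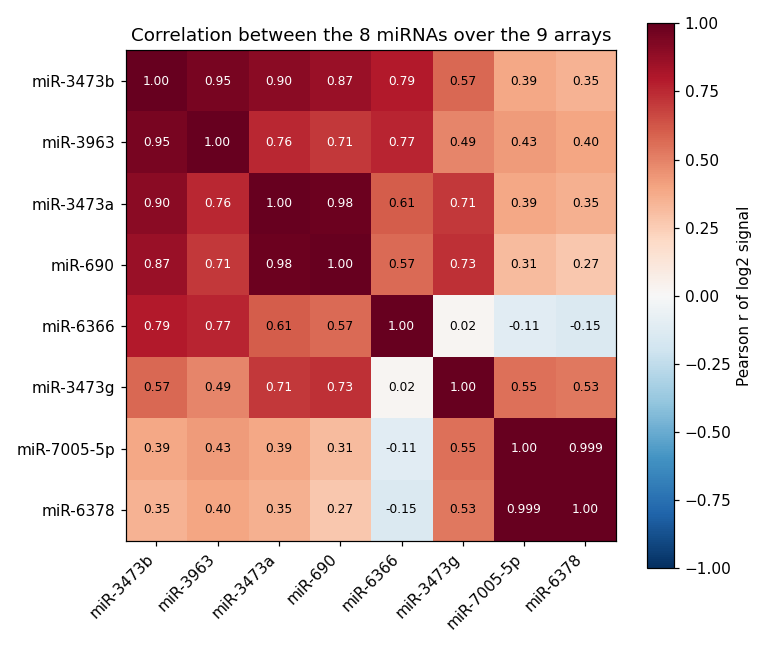
Pearson r of log2 signal over the 9 arrays for each pair of the 8 miRNAs (both axes list the miRNAs, and colour gives r). The values run from 0.999 for miR-7005-5p with miR-6378 to -0.146 for miR-6378 with miR-6366.

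Other miRNAs were ranked by their r to the mean log2 signal of the 5 members detected on all 9 arrays (miR-3473b, miR-3963, miR-6366, miR-7005-5p and miR-6378). Against the mean of the other 4, these members themselves had an r of 0.853, 0.875, 0.443, 0.505 and 0.515. The most alike of the 23 other miRNAs was miR-6769b-5p, with an r of 0.378 and a rho of 0.583. It was followed by miR-181a-5p (r 0.225), miR-125b-5p (0.154), miR-494-3p (0.148, rho 0.667) and miR-6360 (0.143). The next 5 were miR-125a-5p, miR-7042-5p, miR-1249-3p, let-7a-5p and miR-296-5p, with r from 0.120 down to 0.082. The least alike were miR-8110 (r -0.781, rho -0.750), miR-3960 (r -0.712, rho -0.583) and miR-709 (r -0.673, rho -0.850).

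Of the 7 miR-3473 miRNAs on the array, 4 are not members, and 1 of them passed the filter for testing. That 1, miR-3473e, has the seed of miR-3473b, GGCUGGA, and an 18-base run in common with it.
miR-3473b: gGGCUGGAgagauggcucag
miR-3473e: gGGCUGGAgagauggcucgua

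miR-3473e was detected on 7 arrays, near the floor, with means of 3.58 ± 0.11, 3.76 ± 0.39 and 4.40 ± 1.13 at 0, 0.5 and 1 Gy (SD, n = 3). Its highest value, 5.68, was on array 2 of 1 Gy, where miR-3473b was also highest, and the r of the pair was 0.864. miR-3473c was detected on no array, and miR-3473f on array 3 of 0.5 Gy (4.93) and array 2 of 1 Gy (5.07). miR-3473d and the 3′ arm miR-7005-3p were detected on the 2 high-background arrays and on no other. On array 1 of 0.5 Gy and of 1 Gy, miR-3473d read 8.56 and 7.39 and miR-7005-3p read 8.78 and 7.56. How far the probes of miR-3473a, miR-3473b and miR-3473e also bind each other's RNA was not tested, so their signals may not be separate. miR-6997-5p, which shares a run of 10 bases with miR-3473b, was detected on 8 arrays and had means of 8.36, 7.98 and 8.08, with an r of -0.09. miR-882, with the seed of miR-3473a, and miR-6975-5p, with that of miR-7005-5p, were detected on no array.

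Control spots on the same arrays, whose signals were not scaled, also varied. The control named hur_4 read 547, 450 and 1953 on the 0 Gy arrays, 1006, 1892 and 2109 on those of 0.5 Gy, and 666, 2632 and 2592 on those of 1 Gy, so that its mean log2 signal was 1.08 higher at 1 than at 0 Gy. For hur_1 and hur_2 the corresponding differences were 0.68 and 0.50. The control dmr_3 ranged from 326 to 7231 with its highest value on array 1 of 0 Gy, where miR-7005-5p and miR-6378 were also highest, and its mean log2 signal differed by -0.07. dmr_285 stayed between 152 and 288. The files do not say what these names stand for, and the part of the controls' variation in the members' values was not tested.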

How the data were processed

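The authors deposited spot intensity values, 1 file per array, from Agilent Feature Extraction 11.5.1.1, which detrended and subtracted background, per the file headers. A series table was not used, since its 9 value columns match no sample title. The 8 miRNAs, the marker and comparison lists and the alternatives were chosen with earlier results of these data known. Non-uniform spots and population outliers were dropped (1358 to 1661 per array), and 0 spots were saturated. Probe means were divided by each array's 75th percentile (of the 45 probes that all 9 arrays detected), summed per miRNA, raised to a floor at the 1st percentile of detected values and taken to log2. limma 3.58.1 (R 4.3.3) was fitted over 9 arrays and 134 miRNAs, two-sided, with Benjamini-Hochberg adjustment, and was also run on simulated data. The number of arrays limits the precision. Text names all 8 miRNAs, the 10 most and 3 least correlated others, and detected relatives by name, seed or hairpin arm. Those that share 10 or more bases with miR-3473b, and the controls, were partly chosen after their values were seen. Same-numbered arrays of 0.5 and 1 Gy deviated together (correlation over 0.1 in all 3 pairs), so those doses were also fitted with the number as a block. The number cannot be told apart from background and slide. Other alternatives changed the scaling, background, probe summary, filter, floor, slide block and arrays; normexp was run on the median spot signal. Sequences came from RefSeq tables (GRCm38.p6), which matched 1608 of the 1881 miRNAs. Figures used matplotlib 3.10.9.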

Additional observations from a re-analysis of the deposited data

How the results depend on the processing

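Over 24 settings of 1 against 0 Gy, the median of the 8 stayed above 0 but moved from 1.39 to 0.35 (scaled on all probes), 0.526 (quantile normalization), 0.608 (slide block), 0.565 (slide of 6 arrays), 2.11 (high-background arrays left out) and 0.663 (slide 3 left out), and from 0.663 to 1.94 with 1 array left out. For 0.5 against 0 Gy (0.253) it turned to -0.381 on all probes, -0.181 with no scaling, -0.53 with quantile normalization, -0.514 with the scanner's total gene signal, -0.555 with the slide block, -0.507 in the slide of 6 and -0.406 without slide 3, was 0.998 without high-background arrays, and ranged from -0.406 to 0.696 with 1 array left out. For 1 against 0.5 Gy (0.965) that range was 0.476 to 1.38. The mean pairwise correlation of the 5 members detected on all arrays was 0.481, 0.883 on all probes, and 0.302 to 0.792 with 1 array left out. The count of probes higher at 1 Gy went from 10 to 15.

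Single miRNAs reversed as follows at 1 against 0 Gy. miR-3473g was -0.982 on all probes, -0.007 with no scaling, -0.405 with quantile normalization, -0.5 with the slide block, -0.675 in the slide of 6 and -0.251 without slide 3 (-0.251 to 0.671 with 1 array left out). On all probes, with the slide block, in the slide of 6 and without slide 3, miR-7005-5p was -0.841, -0.015, -0.156 and -0.019 (-0.316 to 1.26 with 1 array left out) and miR-6378 was -0.971, -0.027, -0.158 and -0.066 (-0.309 to 0.947). At 0.5 against 0 Gy, on all probes, with no scaling, quantile normalization, total gene signal, slide block, slide of 6 and without slide 3, miR-3473a was -0.244, -0.126, -0.553, -0.584, -0.535, -0.476 and -0.419 (-0.419 to 0.796), and miR-690 was -0.132, -0.237, -0.511, -0.472, -0.576, -0.538 and -0.397 (-0.397 to 0.664). On all probes, miR-3473b was -0.438, miR-3963 -0.19 and miR-6366 -0.325. miR-3473g was 0.023 with normexp and 0.266 without high-background arrays (-0.685 to 0.152), and leaving out 1 array gave -1.35 to 0.226 for miR-7005-5p and -1.12 to 0.139 for miR-6378. The causes were not tested. No member changed sign at 1 against 0.5 Gy.

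With the replicate number as a block over 9 arrays, limma called 0 in each comparison (unadjusted p under 0.05 for 7, 5 and 0 miRNAs at 1 against 0, 0.5 against 0 and 1 against 0.5 Gy). The medians of the 8 remained 1.39, 0.253 and 0.965. The pairing of 0.5 and 1 Gy arrays alone gave 3 calls among 40 miRNAs and 0 among 134. The fits without 2 arrays or slide 3 and these paired fits were chosen after seeing the data.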
